A study of Mus musculus with 54 samples.

Results

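Klotho, its receptor partner, the enzymes and receptor of the vitamin D system and the main calcium and phosphate transporters of the kidney were followed as 10 genes among the 54232 genes counted in each library. They were chosen by name, with earlier results of these data known, were matched by the symbol of their Ensembl gene, and are Kl, Fgfr1, Slc34a1, Slc34a3, Slc20a2, Cyp24a1, Cyp27b1, Vdr, Calb1 and Trpv5. Counts came from RNA sequencing of 54 mouse libraries. The aged mice were naturally aged male BL6 mice of about 20 months that received daily injections into the abdomen for 14 days, either of the HDAC1/2 inhibitor Cmpd60 at 22.5 mg/kg or of its vehicle, a mixture of DMSO, PEG400 and saline. Of these mice, kidney was sequenced in 5 vehicle and 6 Cmpd60 libraries, brain in 6 and 6, and heart in 6 and 5. Brain was also sequenced from APPSWE mice on the BL6 background, which carry a transgene for human amyloid precursor protein with the Swedish mutation, and from their littermates, with 6 vehicle and 4 Cmpd60 APPSWE libraries and 5 libraries for each treatment of the littermates. The series text gives these mice as 6 to 7 months old, with the same dose and duration. The promoter that drives the transgene was not given in the sources used here. Each library is named by its replicate number in the labels.

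FGF23 is a bone hormone that signals in the kidney through a complex of klotho and FGF receptors, and this signal lowers phosphate uptake in the proximal tubule, lowers the enzyme that makes calcitriol (active vitamin D) and raises the enzyme that breaks it down. Calcitriol acts through the vitamin D receptor and in the distal tubule favours calcium uptake through the channel TRPV5 and the calcium binding protein calbindin. Klotho is made mainly in the tubule of the kidney and in the choroid plexus, the epithelium that makes the cerebrospinal fluid.

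For the kidney libraries, titles and source names give treatments that are the opposite of the treatment field, and the titles were followed. With the other reading, each difference between Cmpd60 and vehicle kidneys below would keep its size and change its sign, and the comparisons of kidney with brain or heart would change in size too. The first APPSWE vehicle library in the labels was vehicle in all of them and was used as such, although the study's own table heads it as Cmpd60. Gene counts ranged from 25164965 to 39171083 per library in kidney, from 26402957 to 57430113 in aged brain, from 23584609 to 43792168 in heart and from 25052335 to 55871402 in the APPSWE and littermate brains. In the last set, 5 of 20 libraries had under 18000 genes with a count, down to 15044, whereas the 12 aged brains had at least 24939. Kidneys had 18512 to 23062 such genes, with the fewest in Cmpd60 replicates 55 (18512) and 53 (19385) and vehicle replicate 49 (20069). In heart, 1 library had under 18000 (vehicle replicate 66, 17809). Kidney libraries held all 5 proximal tubule markers, with a summed level of 1546 to 3808 CPM (counts scaled to library size after TMM normalisation), and heart libraries at most 1.73 CPM. All 13 choroid plexus markers were detected in each group of brains.

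Promoters are shown for the 4 genes whose kidney levels are described in most detail, namely Kl, both sodium phosphate cotransporters of the proximal tubule and Cyp27b1. They run from 250 bases before to 50 bases after the gene start in RefSeq, build GRCm38.p6, 5′ to 3′ on the strand of the gene. The Kl window is chr5:150952357-150952656 on the plus strand, that of Slc34a1 is chr13:55399398-55399697 on the plus strand, that of Slc34a3 is chr2:25234185-25234484 on the minus strand and that of Cyp27b1 is chr10:127047996-127048295 on the plus strand. Capitals mark 5 motifs searched on both strands, which are TATAAA (the TATA box), GGGCGG (the GC box of SP1), CCAAT (the box bound by NF-Y), AGGTCA (the core element of nuclear receptors) and GTTAAT (a core element of HNF1). No 2 matches overlap in these 4 windows.
Kl: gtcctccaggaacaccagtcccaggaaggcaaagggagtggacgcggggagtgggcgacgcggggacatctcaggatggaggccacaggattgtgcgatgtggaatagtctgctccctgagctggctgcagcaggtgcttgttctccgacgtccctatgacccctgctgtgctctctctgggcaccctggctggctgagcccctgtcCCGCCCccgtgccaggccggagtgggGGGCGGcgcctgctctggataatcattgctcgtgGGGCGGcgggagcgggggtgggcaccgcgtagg
Slc34a1: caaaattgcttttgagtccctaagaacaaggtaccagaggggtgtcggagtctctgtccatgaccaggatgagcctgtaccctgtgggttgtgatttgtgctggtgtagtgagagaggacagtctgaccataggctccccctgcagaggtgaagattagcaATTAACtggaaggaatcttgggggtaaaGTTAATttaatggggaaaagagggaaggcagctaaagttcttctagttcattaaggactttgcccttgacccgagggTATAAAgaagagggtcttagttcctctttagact
Slc34a3: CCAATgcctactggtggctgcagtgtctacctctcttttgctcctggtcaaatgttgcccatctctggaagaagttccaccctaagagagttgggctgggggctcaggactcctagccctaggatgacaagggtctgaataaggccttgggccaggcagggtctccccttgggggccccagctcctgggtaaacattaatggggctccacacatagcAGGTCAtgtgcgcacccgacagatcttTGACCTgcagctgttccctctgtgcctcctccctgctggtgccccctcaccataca
Cyp27b1: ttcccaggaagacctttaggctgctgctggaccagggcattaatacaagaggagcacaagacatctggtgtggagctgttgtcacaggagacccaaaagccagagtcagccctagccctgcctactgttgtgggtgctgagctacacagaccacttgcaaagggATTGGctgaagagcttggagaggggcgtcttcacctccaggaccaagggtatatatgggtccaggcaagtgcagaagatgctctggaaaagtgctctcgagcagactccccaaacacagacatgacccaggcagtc

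The Kl window had 67.3% G and C, against a median of 52.7% over 32851 promoters, with 19 CG pairs against a median of 7. It held GGGCGG 3 times, a motif found in 35.7% of all promoters, and none of the other motifs. Slc34a1 had GTTAAT once on each strand (in 7.1% of promoters) and TATAAA at bases 17 to 22 after the start (13.6%). Slc34a3 held AGGTCA once on each strand (16.3%) and CCAAT at the far end of the window (37.4%), and Cyp27b1 held CCAAT on the opposite strand at bases -86 to -82. The windows of the other 2 genes that were available showed 3 copies of GGGCGG for Vdr and TATAAA for Trpv5. These matches are a description of letters, and no binding was measured. Fgfr1, Slc20a2, Cyp24a1 and Calb1 were not matched in the promoter table.

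In the aged kidney, the question was whether Cmpd60 changed the level of these genes. Log2 fold changes are those of Cmpd60 against vehicle, SE is their standard error in the fit, and each adjusted p is over all genes tested in that fit. Cyp27b1, which makes calcitriol, was on average 3.62-fold lower after Cmpd60, the largest difference among the 10 genes, and Slc20a2, Slc34a1, Slc34a3 and Kl were 1.20-, 1.40-, 1.53- and 1.29-fold lower. Cyp24a1, which breaks calcitriol down, was 1.74-fold higher with a wide spread. None of the 10 genes passed an adjusted p of 0.05 (edgeR quasi-likelihood test, Benjamini-Hochberg over 20698 genes), where 0.3% of all genes did. At an unadjusted p of 0.05, 3 of the 10 passed, all lower, beside 11.3% of all genes in either direction and 5.63% lower. The groups did not overlap for 2 of the 10, Cyp27b1 and Slc20a2, both lower, beside 2.3% of all genes in either direction and 1.2% lower. Of the 10 genes, 3 had a log2 fold change above 0, as did 50% of all genes. Their median log2 fold change was -0.26, against -8.01e-05 for all genes.

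**Figure D1:**
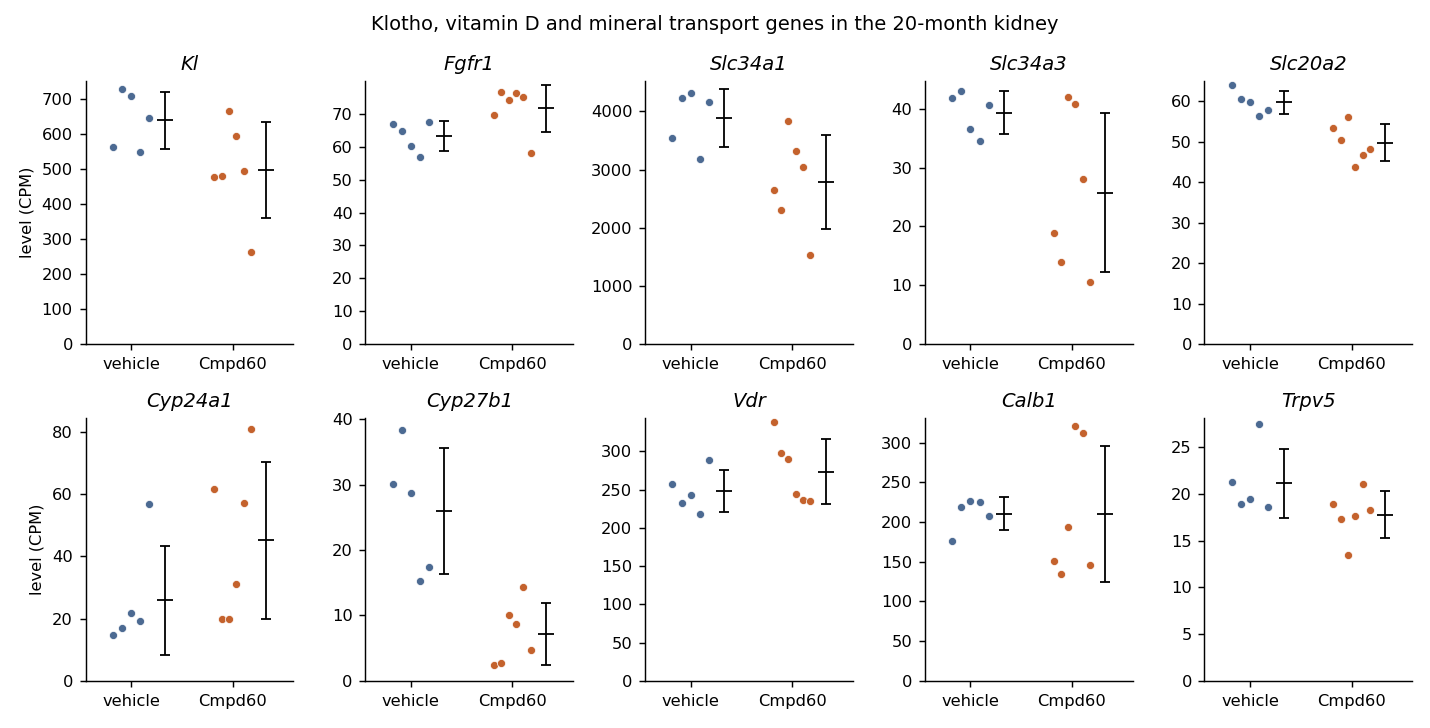
Level in CPM (linear axes from 0) of the 10 genes in each vehicle (blue) and Cmpd60 (orange) kidney of 20-month mice, with the mean and SD as a cross and bar beside the points. Cyp27b1 and Slc20a2 are the 2 genes whose groups do not overlap, and 1 Cmpd60 kidney (the last orange point, replicate 55) is lowest for Kl, Slc34a1 and Slc34a3.

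Kl codes for the membrane protein that makes FGF receptors respond to FGF23. Kl stood at 564, 728, 708, 549 and 646 CPM in the vehicle kidneys (replicates 45 to 49), and at 477, 480, 666, 595, 495 and 263 CPM after Cmpd60 (replicates 50 to 55). Replicates 52 and 53 lay within the vehicle range, and the other 4 Cmpd60 kidneys lay below it, with replicate 55 lowest. The means were 639 ± 81.3 (SD, n = 5) and 496 ± 137 CPM (SD, n = 6). Kl had a log2 fold change of -0.37 with an SE of 0.18 (edgeR adjusted p = 0.464). Without replicate 55 it was -0.23 with an SE of 0.12 (edgeR adjusted p = 0.490).

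Fgfr1, the receptor that binds klotho, had a slightly higher mean after Cmpd60. It stood at 66.8, 64.8, 60.4, 56.8 and 67.6 CPM in vehicle kidneys and at 69.8, 76.8, 74.3, 76.4, 75.0 and 58.0 CPM after Cmpd60. Of the 6 Cmpd60 kidneys, 5 lay above all vehicle kidneys, while replicate 55 lay within their range. For Fgfr1 the log2 fold change was 0.18 with an SE of 0.088 (edgeR adjusted p = 0.456), and 0.24 with an SE of 0.070 without replicate 55 (edgeR adjusted p = 0.179).

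Slc34a1 and Slc34a3 code for the sodium phosphate cotransporters of the proximal tubule brush border. Slc34a1 stood at 3540, 4231, 4311, 3188 and 4158 CPM in vehicle kidneys, and at 2655, 2314, 3837, 3316, 3041 and 1532 CPM after Cmpd60. As for Kl, replicates 52 and 53 were inside the vehicle range and the other 4 were below it. Its log2 fold change was -0.48 with an SE of 0.19 (edgeR adjusted p = 0.359), and -0.35 with an SE of 0.14 without replicate 55 (edgeR adjusted p = 0.355).

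Slc34a3 was expressed far below Slc34a1. Per kilobase of exon, vehicle kidneys held 16.7 ± 1.55 CPM of Slc34a3 and 1260 ± 161 CPM of Slc34a1 (SD, n = 5). Slc34a3 levels were 41.9, 43.1, 36.5, 34.5 and 40.6 CPM with vehicle and 18.9, 14.0, 42.0, 40.8, 28.1 and 10.6 CPM with Cmpd60. The Cmpd60 kidneys spread over a wider range than the vehicle kidneys, with replicates 52 and 53 at the vehicle level and replicates 50, 51 and 55 under 20 CPM. The log2 fold change was -0.61 with an SE of 0.29 (edgeR adjusted p = 0.441).

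Slc20a2, a sodium phosphate cotransporter found in most cells, differed by little but without overlap. Vehicle kidneys held 63.9, 60.6, 59.9, 56.4 and 57.9 CPM and Cmpd60 kidneys held 53.4, 50.5, 56.2, 43.8, 46.6 and 48.2 CPM. The highest Cmpd60 kidney and the lowest vehicle kidney were nearly level. Its log2 fold change was -0.26 with an SE of 0.080 (edgeR adjusted p = 0.213), and its adjusted p ranged from 0.0509 to 0.402 over the 17 alternatives.

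Among the vitamin D genes, Cyp27b1 stood at 30.1, 38.4, 28.8, 15.3 and 17.4 CPM in vehicle kidneys and at 2.36, 2.73, 10.1, 8.66, 14.4 and 4.80 CPM after Cmpd60. Each Cmpd60 kidney was below each vehicle kidney, but replicate 54 came close to vehicle replicate 48, and the levels within either group differed by more than 2-fold. The smallest count behind these values was 73. This gave a log2 fold change of -1.86 with an SE of 0.40 (edgeR adjusted p = 0.0792). This adjusted p missed the threshold, and 5 of 17 alternatives brought the adjusted p under 0.05. These were edgeR with no filter on low counts (0.0269), DESeq2 (0.0141), limma-voom (0.0407), limma-voom with library quality weights (0.00876) and edgeR without replicate 54 (0.0342). Of these, limma-voom is the kind of test that the study used. Over all 17 alternatives the log2 fold change ranged from -2.53 to -1.67 and the adjusted p reached 0.217.

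Cyp24a1 stood at 14.6, 17.0, 21.7, 19.2 and 56.7 CPM with vehicle and at 61.7, 19.9, 20.0, 31.1, 57.1 and 80.9 CPM with Cmpd60. Vehicle replicate 49 was as high as the upper Cmpd60 kidneys, and 2 Cmpd60 kidneys were at the level of the other vehicle kidneys. The log2 fold change was 0.80 with an SE of 0.41 (edgeR adjusted p = 0.482). It was 1.32 without vehicle replicate 49 (edgeR adjusted p = 0.245) and 0.56 without Cmpd60 replicate 55 (edgeR adjusted p = 0.666). Vdr, the calcitriol receptor, stood at 218 to 289 CPM in vehicle and 235 to 338 CPM in Cmpd60 kidneys, with a log2 fold change of 0.14 and an SE of 0.11 (edgeR adjusted p = 0.680).

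Calb1, which codes for calbindin, had nearly the same mean in both groups but a different spread. Vehicle kidneys held 176, 218, 226, 226 and 207 CPM and Cmpd60 kidneys 151.1, 135, 193, 321, 312 and 146.02 CPM. Replicates 53 and 54 were above all vehicle kidneys, and replicates 50, 51 and 55 were below them. The log2 fold change was -0.0049 with an SE of 0.22 (edgeR adjusted p = 0.995), and its sign changed with the processing. Trpv5, the calcium channel of the distal tubule, stood at 21.2, 18.9, 19.4, 27.4 and 18.6 CPM with vehicle and 18.9, 17.3, 13.4, 17.6, 21.0 and 18.2 CPM with Cmpd60, a log2 fold change of -0.25 with an SE of 0.13 (edgeR adjusted p = 0.483).

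Kl, Slc34a1 and Slc34a3 followed each other from kidney to kidney. After each group was centred on its mean log2 CPM, the Pearson correlation over the 11 kidneys, which share tissue source and preparation, was 0.96 between Kl and Slc34a1, 0.83 between Kl and Slc34a3 and 0.90 between Slc34a1 and Slc34a3. Fgfr1 had 0.76 with Kl, and Cyp24a1 had -0.49. Replicate 55 was the lowest Cmpd60 kidney for Kl, Fgfr1, Slc34a1 and Slc34a3, and was set apart from the other Cmpd60 kidneys for Fgfr1 (58.0 CPM). These correlations were not computed without it, so how far that of Kl with Fgfr1 rests on this 1 kidney was not tested. Cyp27b1 had 0.38 with Kl, 0.66 with Slc34a3 and 0.70 with Calb1, the 2 latter being its highest among the other 9 genes. Among 14427 genes that averaged 1 CPM or more, those most like Kl by this measure included Fbp1, Pdk2, Slc26a1, Arsb, Fam107a, Tcn2 and Gm4737, with values of 0.966 to 0.972. Fbp1 is an enzyme of glucose synthesis and Slc26a1 carries sulfate.

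The same kidneys differed in tubular markers. The summed level of the 5 proximal tubule markers ranged from 2796 to 3808 CPM in vehicle and from 1546 to 3517 CPM in Cmpd60 kidneys. All 5 had a log2 fold change below 0, whereas 50% of all genes were above 0. None of the 5 passed the adjusted threshold in edgeR, which 0.3% of all genes did. The injury markers Havcr1 and Lcn2 together ranged from 27.9 to 169 CPM in vehicle and from 25.9 to 877 CPM in Cmpd60 kidneys, with replicate 55 at the top and no other kidney above 244 CPM. In bulk tissue, fewer cells of a type and less RNA per cell cannot be told apart.

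On a log2 scale over the 11 kidneys, Kl and the proximal tubule sum had a Pearson r of 0.96 (permutation p = 0.00011, adjusted p = 0.000997 over 21 relations) and a Spearman rho of 0.83 (permutation p = 0.00269, adjusted p = 0.0188), with r = 0.84 without the 2 kidneys farthest from the median sum. Within the 6 Cmpd60 kidneys r was 0.96 (exact permutation p = 0.0167, adjusted p = 0.0318) and rho 0.60 (exact permutation p = 0.242), and without those 2 kidneys r was 0.30, so that the relation within this group rests on them. Kl and the injury sum had an r of -0.91 (permutation p = 0.00019, adjusted p = 0.000997) and a rho of -0.80 (permutation p = 0.00501, adjusted p = 0.0210), and r was -0.94 without the 2 farthest kidneys. Within the Cmpd60 kidneys r was -0.89 (exact permutation p = 0.0208, adjusted p = 0.0365), rho was -0.71 (exact permutation p = 0.136) and r was -0.94 without the 2 farthest kidneys. Correlations were computed over 6 or more libraries, and none was computed within the 5 vehicle kidneys. For the correlations with marker sums the groups were not centred, so those over both groups also carry any difference between the groups.

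Slc34a1 behaved much as Kl did in this respect. Its r over the 11 kidneys was 0.95 with the proximal tubule sum (adjusted permutation p = 0.000997) and -0.885 with the injury sum (adjusted permutation p = 0.00202). Its rho was 0.91 and -0.81 (adjusted permutation p = 0.00346 and 0.0210), and without the 2 farthest kidneys r was 0.84 and -0.89. Within the Cmpd60 kidneys r with the proximal tubule sum fell from 0.92 to 0.086 without the 2 farthest, and so rests on them. Cyp27b1 had correlations nearer to 0. Its r over all kidneys was 0.57 with the proximal tubule sum (permutation p = 0.0604, adjusted p = 0.0845, rho 0.64, r 0.53 without the 2 farthest) and -0.54 with the injury sum (permutation p = 0.0881, adjusted p = 0.109, rho -0.43, r -0.60 without the 2 farthest). Within the Cmpd60 kidneys these were 0.19 (exact permutation p = 0.783) and -0.32 (exact permutation p = 0.536). Cyp24a1 had an r of -0.58 with the proximal tubule sum (permutation p = 0.0496, adjusted p = 0.0744, rho -0.41, r -0.27 without the 2 farthest) and of 0.46 with the injury sum (permutation p = 0.158, rho 0.25). What part tubular injury or the share of proximal tubule has in the differences between the groups was not tested.

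**Figure D2:**
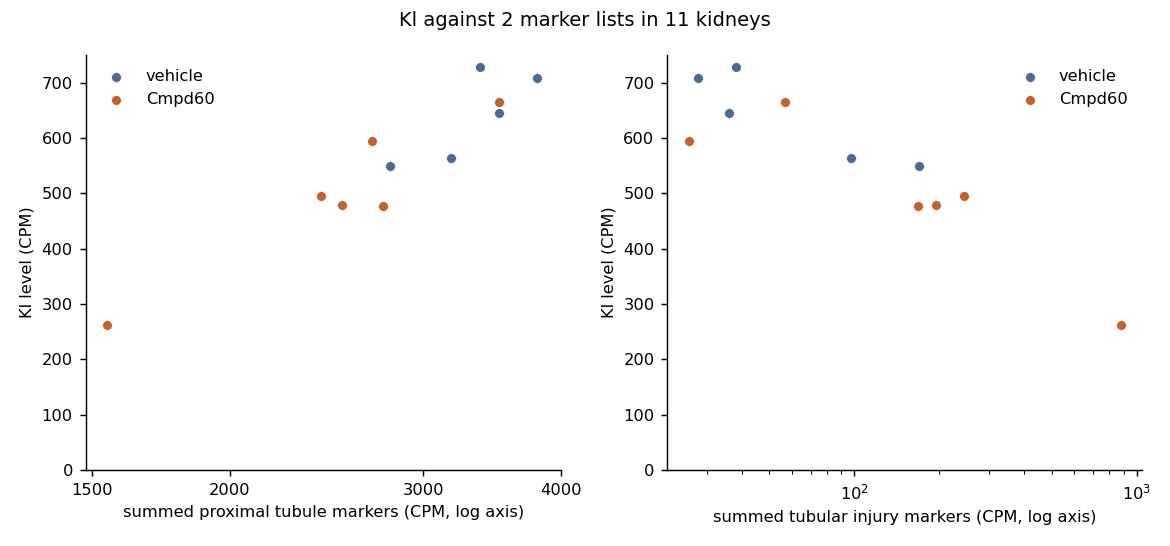
Kl level in CPM (linear axis) in the 11 kidneys against the summed level of 5 proximal tubule markers (left) and of the injury markers Havcr1 and Lcn2 (right), both in CPM on log axes, with vehicle in blue and Cmpd60 in orange. The kidney at 263 CPM of Kl is replicate 55, with the lowest proximal tubule sum (1546 CPM) and the highest injury sum (877 CPM).

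The other genes of these pathways came in 4 lists of 39 genes in all, chosen with earlier results of these data known. None passed the adjusted threshold in the kidney, which 0.3% of all genes did. Of 9 further genes of FGF23 and klotho signalling, 8 were measured well enough to be tested (Fgf23 itself was not). All 8 had a log2 fold change below 0, with a median of -0.17, whereas 50% of all genes were above 0. At an unadjusted p of 0.05, 2 of the 8 were lower and none higher, beside 5.63% and 5.71% of all genes. The 2 lower genes were Fgfr3 and Fgfr4, FGF receptors that also bind klotho. Fgfr3 stood at 37.2 to 48.7 CPM with vehicle (median 43.4) and at 22.7 to 42.9 CPM with Cmpd60 (median 31.3), a log2 fold change of -0.46 with an SE of 0.14 (edgeR adjusted p = 0.200). Fgfr4 stood at 42.5 to 53.3 CPM (median 45.5) and 29.6 to 43.9 CPM (median 35.5), a log2 fold change of -0.35 with an SE of 0.10 (edgeR adjusted p = 0.179). Both were lowest in replicate 55.

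The 9 genes of vitamin D uptake, activation and receptor partners had a median log2 fold change of 0.01, with 2 higher and none lower at an unadjusted p of 0.05. Gc, the vitamin D binding protein of plasma, stood at 25.9 to 91.9 CPM with vehicle (median 32.1) and at 51.0 to 362 CPM with Cmpd60 (median 79.2). It was highest in replicate 55, and its log2 fold change was 1.45 with an SE of 0.48 (edgeR adjusted p = 0.246). Lrp2 and Cubn, the receptors that take up this protein from the filtrate, had log2 fold changes of 0.01 and -0.01 (edgeR adjusted p = 0.988 and 0.989). The 7 further phosphate transport genes had a median of 0.19, with 1 higher, and the 14 calcium and magnesium transport genes a median of 0.03, with 1 higher and 1 lower at an unadjusted p of 0.05. Over all genes, 5.71% were higher and 5.63% lower at that level.

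Among vehicle mice, 7 of the 10 genes were higher in kidney than in both brain and heart at an adjusted p of 0.05 (edgeR on the 34 aged libraries together), namely Kl, Slc34a1, Slc34a3, Cyp24a1, Cyp27b1, Vdr and Trpv5. Over all genes, 32.8% were higher in kidney than in brain and 31.1% higher than in heart, so a difference from either tissue alone is common. The share of all genes higher in kidney than in both was not computed. The list was chosen around genes known from the kidney, so the count of 7 follows in part from that choice. The paper describes fewer aged mice than the 34 aged libraries, so some tissues came from the same mouse, but which ones was not known. Libraries were treated as separate, so the SEs and p-values of the fit of all 34 take no account of shared mice. Kl was 24.3-fold higher in kidney than in brain, a log2 difference of 4.61 with an SE of 0.29, and its log2 difference between brain and heart was 6.20 with an SE of 0.41 (edgeR adjusted p = 1.08e-16 and 6.39e-16). The order of Kl was thus kidney, brain, heart. Trpv5 had no count in any of the 23 aged brain and heart libraries, so that vehicle kidney was at least 1356-fold higher than vehicle brain and at least 904-fold higher than vehicle heart, with 3 counts over the group as the floor. Slc34a3 had no count in the vehicle hearts, at least 1716-fold below kidney.

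Fgfr1, Slc20a2 and Calb1 had other orders. Fgfr1 was highest in brain, followed by kidney and heart, with log2 differences of -0.63 for kidney against brain and 0.23 for kidney against heart (SE 0.072 in both, edgeR adjusted p = 9.55e-10 and 0.00613). Under the joint scaling of all aged libraries used in this test the ranges of Fgfr1 in kidney and heart overlapped, whereas with each tissue scaled on its own they stood at 56.8 to 67.6 CPM in vehicle kidney and 37.8 to 43.4 CPM in vehicle heart. Slc20a2 was highest in heart, then brain, then kidney, with log2 differences of kidney of -2.02 against heart and -0.42 against brain (edgeR adjusted p = 5.58e-22 and 1.32e-05). Calb1 differed between kidney and brain by a log2 difference of 0.17 with an SE of 0.21 (edgeR adjusted p = 0.471) and its total in 6 vehicle hearts was 24 counts. Per kilobase, the highest of the 10 genes in vehicle kidney was Slc34a1, followed by Kl at 125 ± 15.9 CPM, Vdr at 43.9 ± 4.78 CPM and Calb1 at 43.5 ± 4.30 CPM (SD, n = 5), the last 2 within each other's spread.

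**Figure D3:**
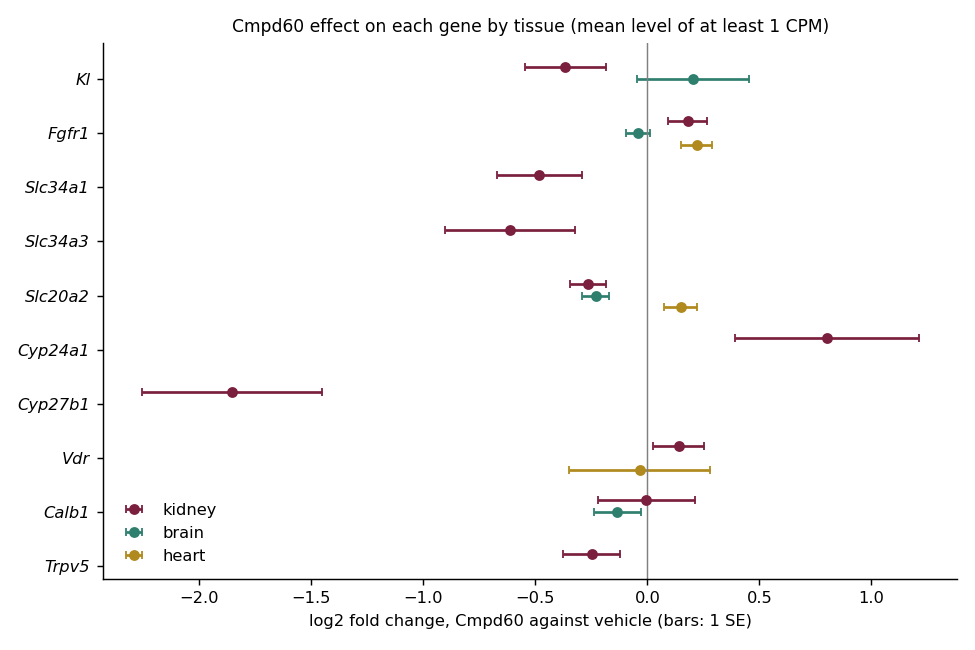
Log2 fold change of Cmpd60 against vehicle for the 10 genes in 20-month kidney, brain and heart, as points with bars of 1 SE from edgeR, shown where the mean over both groups was at least 1 CPM. Cyp27b1 in kidney lies farthest from 0 (-1.86), and Slc20a2 lies below 0 in kidney and brain and above 0 in heart.

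In aged brain, none of the 9 genes tested passed the adjusted threshold, where 0.0205% of all 24438 genes did, and 1 was lower at an unadjusted p of 0.05, as were 6.47% of all genes. This was Slc20a2, at 84.6 to 96.7 CPM with vehicle (median 89.6) and 68.9 to 86.8 CPM with Cmpd60 (median 74.6). The groups overlapped narrowly, and the log2 fold change was -0.23 with an SE of 0.060 (edgeR adjusted p = 0.129), which passed with DESeq2 (adjusted p = 0.0219). Fgfr1 and Calb1 had log2 fold changes of -0.04 and -0.13 (SE 0.052 and 0.10, edgeR adjusted p = 0.778 and 0.607). Apart from Kl, which is described further on, the other members were below a mean of 1 CPM in aged brain.

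In heart, none of the 7 genes tested passed the adjusted threshold, which 1.18% of all 19452 genes did, and 1 was higher and 1 lower at an unadjusted p of 0.05, beside 7.28% and 6.22% of all genes. Fgfr1 ranged from 37.8 to 43.4 CPM with vehicle (median 40.3) and stood at 45.9, 49.1, 45.01, 43.0 and 52.9 CPM with Cmpd60. Replicate 71 alone overlapped the vehicle hearts, and the log2 fold change was 0.22 with an SE of 0.070 (edgeR adjusted p = 0.146). Slc34a1 was low in heart, from 0.165 to 2.15 CPM with vehicle and from 0 to 0.911 CPM with Cmpd60, with a log2 fold change of -1.88 and an SE of 0.86 (edgeR adjusted p = 0.350). Slc20a2 ranged from 162 to 203 CPM with vehicle (median 182) and stood at 212, 194, 207, 182 and 213 CPM with Cmpd60, a log2 fold change of 0.15 with an SE of 0.075 (edgeR adjusted p = 0.408). Vdr had a mean of 2.55 CPM with vehicle and 2.49 CPM with Cmpd60.

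Whether the Cmpd60 effect differed between tissues was tested in the fit of all 34 aged libraries, which takes no account of tissues that share a mouse. None of the 10 genes passed the adjusted threshold in kidney against brain or in kidney against heart, where 0.0885% and 0.35% of all 27105 genes did. Trpv5 had no count in aged brain or heart, so its difference could not be estimated and could not pass. Slc34a1, Slc34a3, Cyp24a1, Cyp27b1 and Vdr averaged below 1 CPM in both brain groups. Kl, Slc34a3, Cyp24a1, Cyp27b1 and Calb1 did so in both heart groups. For these genes the test had little to go on in that tissue. For Slc20a2, the effect in kidney was lower than in heart by 0.42 on the log2 scale with an SE of 0.11 (edgeR adjusted p = 0.0803), and differed from that in brain by -0.06 with an SE of 0.11 (edgeR adjusted p = 0.958). The difference between kidney and heart passed with DESeq2 (adjusted p = 0.00949) and in edgeR without kidney replicate 52 (0.0385) or heart replicate 67 (0.0488). For Cyp27b1, the effect in kidney was lower than in brain by a log2 difference of -2.32 with an SE of 0.64 (edgeR adjusted p = 0.154), but brain libraries held only 113 counts of it in all. This passed with DESeq2 (adjusted p = 0.0237) and without kidney replicate 54 (edgeR adjusted p = 0.0440). Kl differed by -0.60 with an SE of 0.36 between kidney and brain (edgeR adjusted p = 0.597).

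Kl in the aged brain spread more widely with Cmpd60 than with vehicle. Vehicle brains ranged from 20.1 to 33.8 CPM (median 31.01). Cmpd60 brains fell on both sides of this range, at 46.8, 50.9 and 47.2 CPM in replicates 33, 35 and 38, at 13.01 and 19.4 CPM in replicates 34 and 36, and at 25.7 CPM in replicate 37. The log2 fold change was 0.20 with an SE of 0.25 (edgeR adjusted p = 0.769). In heart, Kl ranged from 0 to 0.836 CPM with at most 21 counts in a library, and its log2 fold change of -0.23 had an SE of 0.83 (edgeR adjusted p = 0.941), so that a difference was not detectable at this depth.

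**Figure D4:**
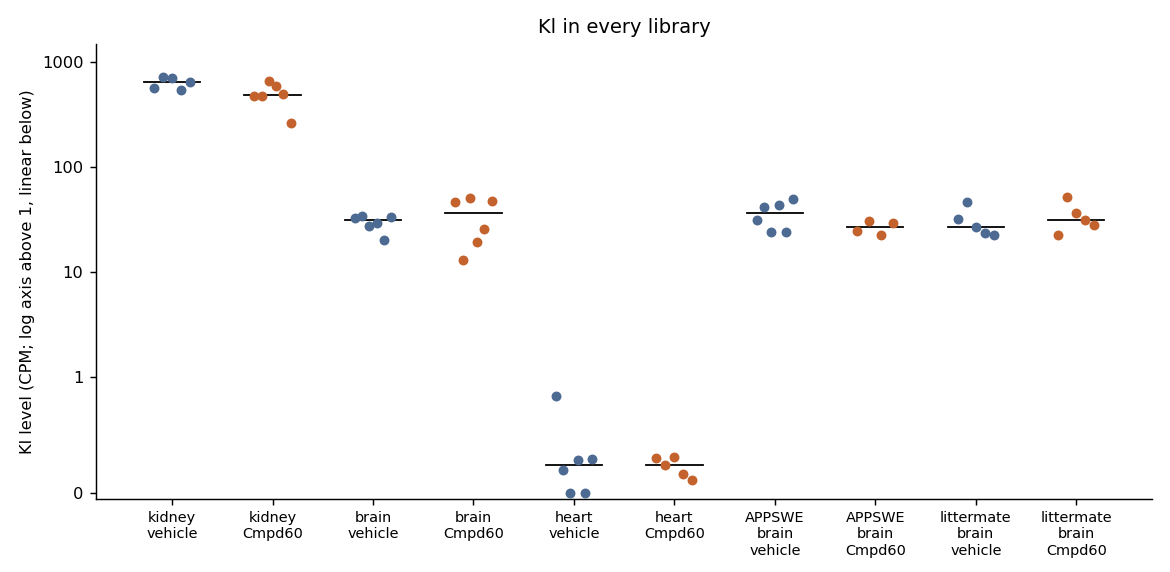
Kl level in CPM in every library of the 10 groups, vehicle in blue and Cmpd60 in orange, with the group median as a line, on an axis that is logarithmic above 1 CPM and linear below. Kidneys lie between 263 and 728 CPM, aged brains between 13.01 and 50.9 CPM and hearts below 1 CPM.

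The choroid plexus markers varied in the same brains. Their summed level ranged from 582 to 810 CPM with vehicle and from 242 to 994 CPM with Cmpd60. Ttr (transthyretin) was by far its largest part, with a mean of 518 CPM in the Cmpd60 brains. Clic6, the next highest of the 13 markers there, had 25.4 CPM, so the sum mainly follows Ttr. None of the 13 markers passed the adjusted threshold for Cmpd60 in edgeR, which 0.0205% of all genes did. The groups were not centred for the correlations with the sum. On a log2 scale over the 12 aged brains, Kl and this sum had an r of 0.88 (permutation p = 0.00019, adjusted p = 0.000997) and a rho of 0.90 (permutation p = 0.00024, adjusted p = 0.00346), and r was 0.83 without the 2 brains farthest from the median sum. Within the 6 Cmpd60 brains r was 0.96 (exact permutation p = 0.00694, adjusted p = 0.0182), rho was 0.89 (exact permutation p = 0.0333, adjusted p = 0.0875) and r was 0.91 without the 2 farthest. Within the 6 vehicle brains r was 0.94 (exact permutation p = 0.00694, adjusted p = 0.0182) and rho 0.94 (exact permutation p = 0.0167, adjusted p = 0.050), but r was 0.48 without the 2 farthest brains, on which the relation within this group rests.

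The 8 genes most like Kl over the 12 brains, of 15423 that averaged 1 CPM or more and after centring each group, were Enpp2, Tmem72, Pon3, Mfrp, Steap1, Ccdc135, Slc4a5 and Cldn2, with Pearson correlations of 0.96 to 0.99. Tmem72, Steap1 and Slc4a5 are among the 13 choroid plexus markers, and Ttr, the transthyretin carrier made by that epithelium, had 0.94. These brains share their dissection and preparation, so the values are a description. How much choroid plexus each sample held was not measured otherwise, and its part in the level of Kl was not tested.

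**Figure D5:**
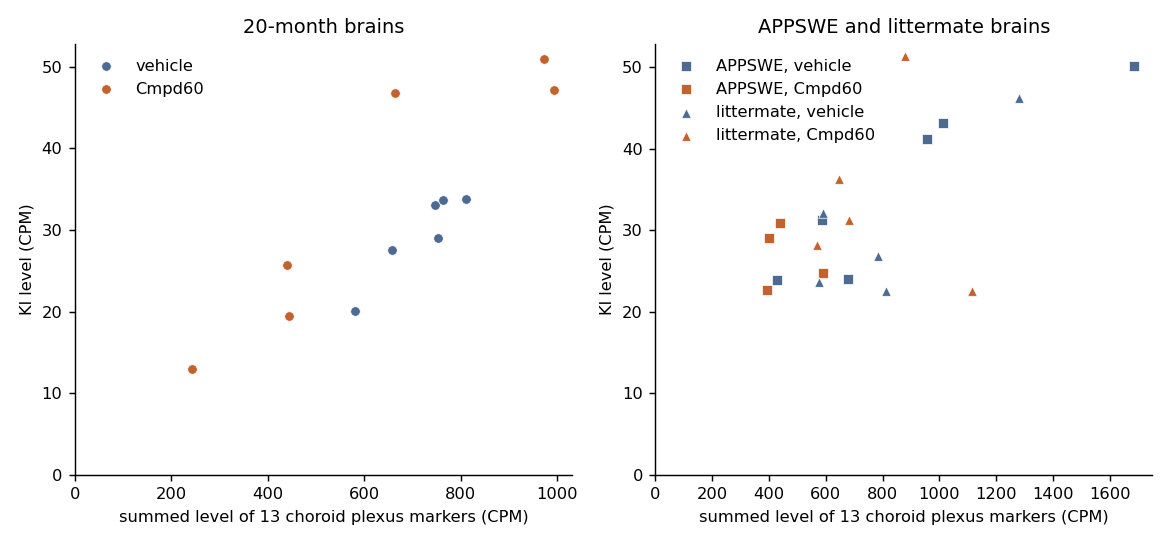
Kl level in CPM against the summed level of 13 choroid plexus markers in CPM, both on linear axes from 0, in the 12 brains of 20-month mice (left) and the 20 APPSWE and littermate brains (right). Ttr makes up most of this sum. In the aged brains the points rise together from 13.01 CPM of Kl at a sum of 242 CPM, and among the younger brains the 1 APPSWE vehicle library at 1685 CPM has 50.1 CPM of Kl.

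In the APPSWE and littermate brains, which were fitted together over 23273 genes, no comparison of Kl passed the adjusted threshold. Kl ranged from 23.9 to 50.1 CPM in APPSWE vehicle brains (median 36.2) and stood at 24.7, 30.8, 22.6 and 29.04 CPM in APPSWE Cmpd60 brains, all within or below the vehicle range. Between these groups the log2 fold change was -0.41 with an SE of 0.24 (edgeR adjusted p = 0.718, where 0% of all genes passed). Littermates held 32.1, 46.2, 26.8, 23.6 and 22.6 CPM with vehicle and 22.6, 51.4, 36.3, 31.3 and 28.2 CPM with Cmpd60, overlapping over nearly the whole range, with a log2 fold change of 0.16 and an SE of 0.23 (edgeR adjusted p = 0.9997, 0% of all genes passed). APPSWE differed from littermates by 0.23 with an SE of 0.22 under vehicle (edgeR adjusted p = 0.903, with 0.00859% of all genes past the threshold) and by -0.34 with an SE of 0.25 under Cmpd60 (edgeR adjusted p = 1, with 0%). The interaction of genotype and Cmpd60 was -0.57 with an SE of 0.33 (edgeR adjusted p = 0.99998, with 0% of all genes past the threshold).

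The choroid plexus sum in these brains ranged from 428 to 1685 CPM in APPSWE vehicle, from 394 to 591 CPM in APPSWE Cmpd60, from 575 to 1279 CPM in littermate vehicle and from 570 to 1113 CPM in littermate Cmpd60. The APPSWE Cmpd60 brains thus had the lowest range of this sum, in which Ttr had a mean of 368 CPM, against 756 CPM in APPSWE vehicle. Not every marker was lower, as Otx2 had a mean of 7.81 CPM against 6.65 CPM. The median of Kl in APPSWE Cmpd60 brains, 26.9 CPM, was level with that of littermate vehicle brains, 26.8 CPM. As in the aged brains, groups were not centred for the correlations with the sum. Over the 20 brains, r between Kl and the sum was 0.59 (permutation p = 0.00599, adjusted p = 0.0182) and rho 0.44 (permutation p = 0.0526, adjusted p = 0.111), and r was 0.37 without the 2 farthest brains, on which the relation rests in part. Within the 6 APPSWE vehicle brains r was 0.90 (exact permutation p = 0.0167, adjusted p = 0.0318), rho was 0.94 (exact permutation p = 0.0167) and r was 0.81 without the 2 farthest. The 8 genes most like Kl here were F5, Npepl1, Kcnh4, Ace, RP24-327G7.3, Tmem201, D6Wsu163e and Cdkn1b, with lower correlations of 0.71 to 0.79, and F5 alone is among the choroid plexus markers. Of the other members, Fgfr1, Slc20a2 and Calb1 averaged 1 CPM or more in these brains, with log2 fold changes for Cmpd60 from -0.04 to 0.14 in both genotypes and no adjusted p (edgeR) below 0.9997.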

How the data were processed

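RNA from kidney, brain and heart was sequenced after oligo-dT selection with a directional kit. Per the labels' processing notes, the authors trimmed reads with Trimmomatic 0.32, aligned them with HISAT2 2.1.0 and counted them with HTSeq 0.11.0, and they deposited raw counts per Ensembl gene for each library. The genome build was not given in the sources used here. HTSeq summary lines (15.4% to 22.1% of a file's reads) were left out. Counts were scaled by TMM. A gene was kept when 3 or more libraries of a fit held over 2 counts of it, edgeR 4.0.16 (R 4.3.3) gave quasi-likelihood p-values, and these were adjusted by Benjamini-Hochberg over all genes kept. Kidney, brain and heart were fitted separately, the APPSWE and littermate brains together, and the 34 aged libraries together for tissue levels and differences. Log2 CPM used a prior count of 2, and levels per kilobase used GENCODE exon lengths. Alternatives were DESeq2 1.42.0, limma-voom (limma 3.58.1) with and without quality weights, DESeq2 size factors, other filters, and each library left out. The study itself used limma-voom, in whose place edgeR was the main test here. The fits were run on simulated counts, where the median of the changes put in had to come back near its size. This check set no limit on false calls and did not cover smaller changes. Symbols were matched to 32651 of 54232 Ensembl IDs, with all members among them.

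Members and lists were chosen with earlier results of these data known. Named were all members in the kidney, Kl in every group, other members at a mean of at least 1 CPM in brain and heart, list genes with p below 0.01 in the kidney and the 8 genes most like Kl in 3 sets of libraries, except 1 gene that is not reported here. Library labels give separate numbers without saying that each is a separate mouse in every tissue, so p-values measure the spread between libraries. Floors cover counting error only.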

Additional observations from a re-analysis of the deposited data

Results flagged for a closer look

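A library was set apart when its gap to the nearest library of its group, divided by the range of the group, passed the 95% critical value of Dixon's test, which chance passes in about 1 of 20 groups. Of 53 pairs of a gene and a group examined, 5 passed. In the kidney, Cyp24a1 stood at 56.7 CPM in vehicle replicate 49 and from 14.6 to 21.7 CPM in the other 4, and Fgfr1 stood at 58.0 CPM in Cmpd60 replicate 55 and from 69.8 to 76.8 CPM in the other 5. In heart, Kl stood at 0.836 CPM in vehicle replicate 62 and at most at 0.287 CPM in the others. Among the APPSWE brains, Fgfr1 stood at 99.5 CPM in Cmpd60 replicate 147 and at 120 to 124 CPM in the other 3, and Slc20a2 stood at 153.6 CPM in vehicle replicate 140, 1 of the libraries with under 18000 genes detected, and at 73.9 to 103 CPM in the other 5. No difference of a Cmpd60 effect between tissues or genotypes passed the adjusted threshold for a member in edgeR, though that of Trpv5 between tissues could not be estimated.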

How the results depend on the processing

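Of 612 alternative values for 31 results, 572 kept their direction and their side of the threshold. In the kidney, the number of members past the adjusted threshold was 0 in the main test and 1 (Cyp27b1) with no filter, with DESeq2, with limma-voom and with limma-voom with quality weights, and it ranged from 0 to 1 when a library was left out (1 without Cmpd60 replicate 54). It was 1 with DESeq2 in aged brain (Slc20a2), and 1 with DESeq2 for kidney minus brain (Cyp27b1) and for kidney minus heart (Slc20a2), with a range of 0 to 1 when a library was left out in both differences (1 without kidney Cmpd60 replicate 54 in the former, and 1 without kidney Cmpd60 replicate 52 or heart vehicle replicate 67 in the latter).

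Calb1 in kidney turned from -0.0049 to 0.00097 with DESeq2 size factors, 1.28e-06 with the filter of at least 10 counts and 0.00091 with DESeq2, and ranged from -0.17 to 0.095 when a library was left out. Kl in heart turned from -0.23 to 0.71 with limma-voom and 0.57 with quality weights, and ranged from -0.49 to 0.51 when a library was left out (above 0 without vehicle replicate 62). Kl in littermate brain ranged from -0.035 to 0.37 when a library was left out (below 0 without Cmpd60 replicate 153). Kl in vehicle APPSWE against littermate brain was -0.050 with limma-voom with quality weights and -0.082 in the 15 libraries with at least 18000 genes detected, an alternative chosen after seeing the data. Kl in kidney minus heart ranged from -0.81 to 0.11 when a library was left out (above 0 without heart vehicle replicate 64 or 66). The cause of these changes was not tested.

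With the library whose treatment is in doubt counted as Cmpd60, Kl in APPSWE brain for Cmpd60 was -0.40 (edgeR adjusted p = 0.604) and the interaction -0.56 (edgeR adjusted p = 0.954). No paired analysis was possible because the groups compared share no replicate numbers. Kl in heart, with 21 counts or fewer, and Cyp27b1 in brain are limited by depth.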
